A study of Mus musculus with 11 samples.

Results

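Adenosine signalling was examined through 9 genes chosen by symbol: the receptors Adora1, Adora2a and Adora2b, the nucleoside transporters Slc29a1, Slc29a2 and Slc29a4, and the enzymes Adk, Nt5e and Ada. All 9 were found among the 53465 Ensembl genes of the count files. RNA had been sequenced from mPFC CRF1+ neurons, cells of the medial prefrontal cortex that were sorted by fluorescence from adult male CRF1:GFP mice of at least 10 weeks. In this reporter line GFP marks cells that express Crhr1, the gene for the type 1 receptor of corticotropin-releasing factor, so the sort followed the activity of a transgene. The 6 naïve mice, whose treatment is recorded as control, received pyrazole (68.1 mg/kg), an alcohol dehydrogenase inhibitor, and breathed air in the chambers. The 5 withdrawn mice, recorded as ethanol, received the same pyrazole with ethanol (1.75 g/kg) and 5 to 6 weeks of chronic intermittent ethanol vapor, and were 5 to 8 days into abstinence. Each library held the sorted cells of 1 mouse, so n counts mice. The strain background is not given in the sources used here. A further label of withdrawn mice 3, 4 and 5 reads control and the deposited design text counts 5 control and 6 ethanol mice, so results were also computed without these 3 mice.

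Adenosine is a breakdown product of ATP that dampens neuronal activity and builds up during wakefulness. Outside the cell it is made from AMP by the ecto-enzyme CD73 (Nt5e), it crosses membranes through equilibrative nucleoside transporters (the Slc29 family), and inside the cell adenosine kinase (Adk) turns it back into AMP while adenosine deaminase (Ada) turns it into inosine. The A1 receptor (Adora1) inhibits adenylyl cyclase and transmitter release, whereas the receptors encoded by Adora2a and Adora2b stimulate that enzyme. Ethanol is known to inhibit uptake through ENT1, the product of Slc29a1, and mice without ENT1 drink more ethanol, which places these genes among those of interest in withdrawal.

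Each mouse gave between 7351567 and 22244869 counts on genes. Levels are given as CPM, the count of a gene scaled to a common total of counts per library. A floor of 3 counts corresponded to between 0.135 and 0.408 CPM by the counts on genes alone, before the normalization used for the levels given here. Such floors cover counting error alone, since the reads came from cDNA amplified from 160 pg of RNA. Crhr1 was present in every library, from 69.1 to 119 CPM in naïve and from 42.2 to 136 CPM in withdrawn mice. Summed over 6 markers of glutamatergic neurons, the lowest library, withdrawn mouse 4, had 1856 CPM. It also had the lowest Crhr1, and 48.1% of its reads were assigned to no annotated feature. Withdrawn mouse 1, at 2775 CPM, was likewise below every naïve mouse in this sum. Libraries differed in markers of other cells. The summed level of 8 fibroblast markers ran from 0.068 to 79.3 CPM in naïve mice and from 18.4 to 1322 CPM in withdrawn mice, and 7 of 7 tested markers had a log2 fold change above 0. Withdrawn mouse 2 was the withdrawn library with the lowest fibroblast sum, and naïve mouse 5 was the library with the smallest number of genes detected, 15585.

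Per exon length, the A1 receptor gene had the highest level of the 9 genes and the A2 receptor genes the lowest. Levels were compared between genes as CPM per kb of annotated exon, and their mean over the 11 mice was 23.3 for Adora1, 12.6 for Adk, 7.42 for Slc29a1, 6.17 for Slc29a2, 1.82 for Ada, 0.989 for Slc29a4, 0.752 for Nt5e, 0.226 for Adora2a and 0.129 for Adora2b. Adora1 was above Adk in 11 of 11 mice by this measure, and their ranges did not overlap. This separation depends on the length used, which counts all annotated exons of a gene, 5785 bases for Adora1 and 8526 for Adk. In CPM without this scaling the ranges overlapped. Adk was then the higher in naïve mouse 4 (144 against 130 CPM) and in withdrawn mouse 3 (118 against 105 CPM). All other neighbours in this order had overlapping ranges. Adk was above Slc29a1 in 9 mice, while Slc29a1 and Slc29a2 changed places between mice, with Slc29a1 the higher of the pair in 7 of 11. Ada, Slc29a4 and Nt5e could not be ordered, since Ada was above Slc29a4 in 6 mice and Slc29a4 above Nt5e in 5.

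**Figure D1:**
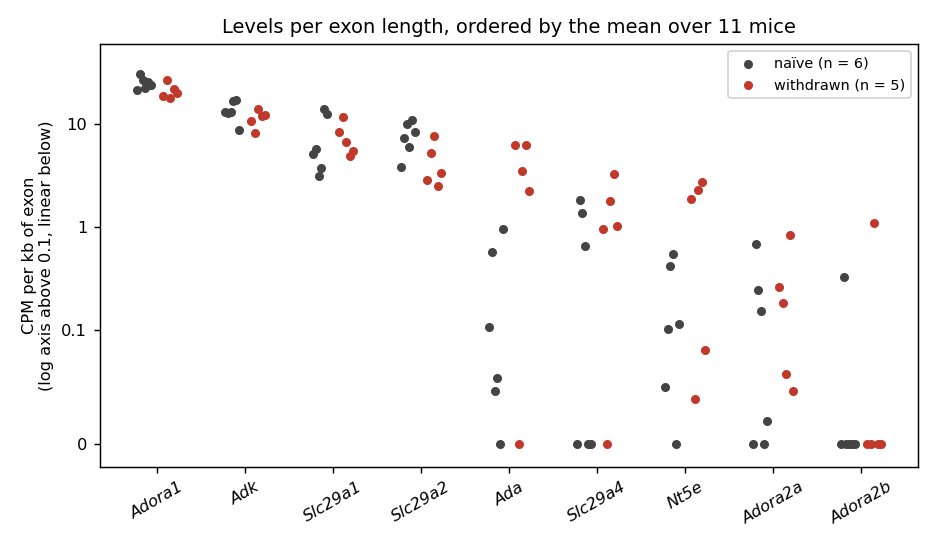
Level of each adenosine gene per exon length in each mouse, in CPM per kb of exon (log axis above 0.1, linear below), with naïve mice (n = 6) in grey and withdrawn mice (n = 5) in red. Adora1 lies above every other gene, from 18.1 to 30.3 CPM per kb, and the 3 genes at the right end are near or at 0 in several mice.

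Withdrawn and naïve mice were then compared, to ask whether withdrawal changed the expression of these genes in the sorted cells. No adenosine gene passed the test over all genes. The low-count filter was passed by 7 of the 9 genes, all but Adora2a and Adora2b. Of these 7, 0 met an adjusted p of at most 0.05 with a log2 fold change beyond 0.6 in edgeR's quasi-likelihood test, where 0.00585% of 17093 tested genes did. DESeq2's Wald test called 0 of the 8 for which it gave an adjusted p, against 1.66% of all genes with one (1.57% higher in withdrawn mice), and limma voom called 0 of 7 as well as 1 of all 17093 genes. With so few genes called in edgeR and limma voom, a count of 0 says little about these 7. At an unadjusted p under 0.05 edgeR had 3 of the 7, Ada and Nt5e with higher and Slc29a2 with lower means in withdrawn mice, where 7.22% of all tested genes had such a p (5.00% higher and 2.22% lower). Ada passed the filter largely through withdrawn mice, with at least 10 counts in 2 naïve and 4 withdrawn mice, while Nt5e had as many in 4 mice of each group. The count of 3 is therefore a description. DESeq2 also had 3 at that level, against a share of 6.24% of all genes. The median log2 fold change of the 7 was 0.0076 beside 0.021 over all genes tested. Fewer cells of a type and less RNA per cell cannot be told apart in such bulk samples.

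**Figure D2:**
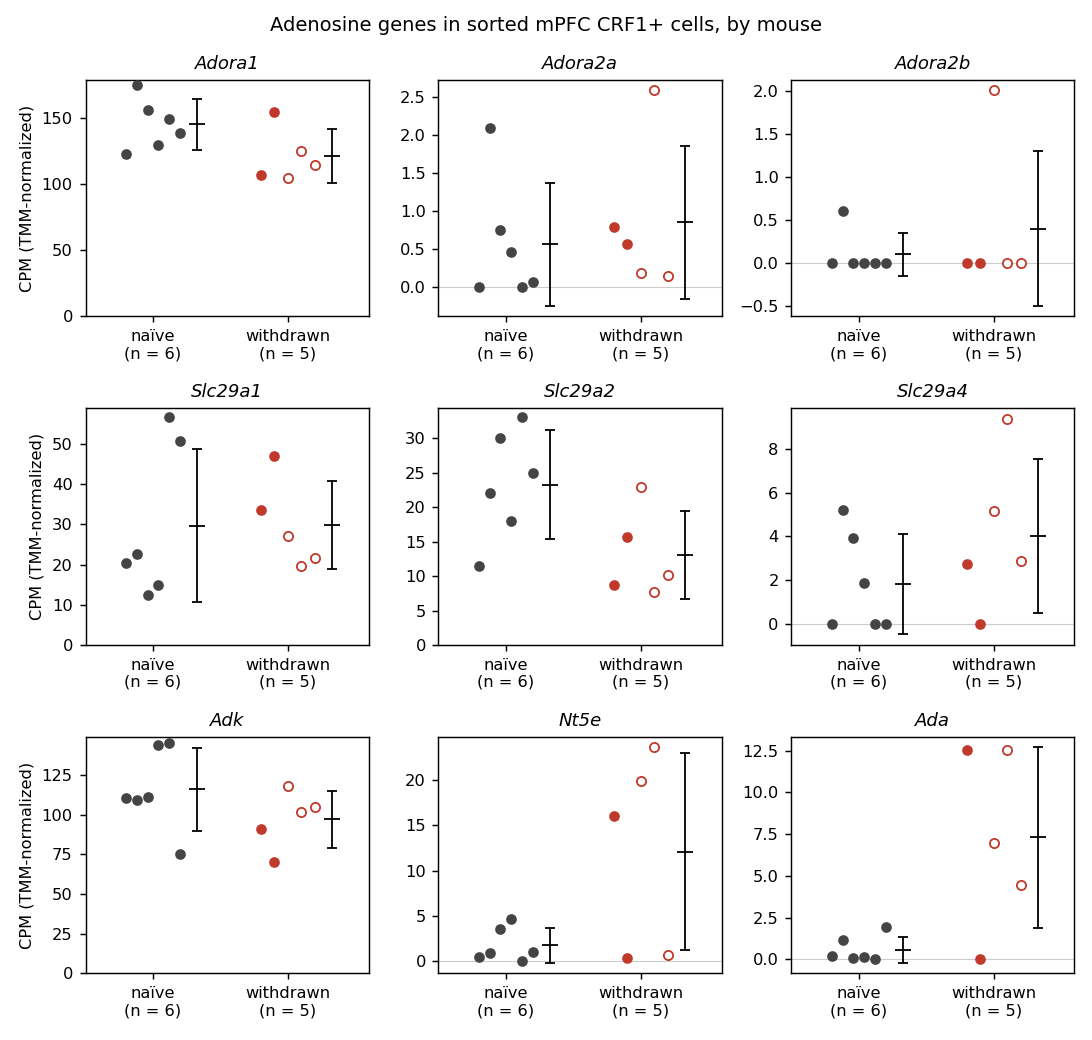
CPM of the 9 adenosine genes in each mouse (points), with the group mean and a bar of 1 SD to each side, which can reach below 0, to the right of the points; open points are the 3 withdrawn mice with a conflicting label. All 9 genes overlap between groups. Ada and Nt5e are low in all naïve mice and reach 12.5 and 23.6 CPM in withdrawn mice. Withdrawn mouse 2 has 0 CPM of Ada, and withdrawn mice 2 and 5 have 0.336 and 0.707 CPM of Nt5e.

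Among the receptors, Adora1 (ENSMUSG00000042429, chromosome 1 of GRCm38 from 134199223 to 134235431, minus strand) lay between 123 and 176 CPM in naïve mice, with a median of 144. In withdrawn mice 1 to 5 it had 107, 155, 105, 126 and 115 CPM. Withdrawn mice 2 and 4 were within the naïve range and the other 3 were below the lowest naïve mouse, so the groups overlapped. The means were 146 ± 19.1 CPM (SD, n = 6) against 121 ± 20.4 CPM (SD, n = 5). This was a log2 fold change of -0.26 ± 0.15 (SE), with a 95% interval from -0.59 to 0.067 and an adjusted p of 0.793 in edgeR. In the exact permutation test over all splits of the mice the two-sided p was 0.0693. Exons of Mybph on the opposite strand share 1162 of the 5785 exonic bases of Adora1, and no read was assigned to Mybph in any mouse.

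Adora2a (ENSMUSG00000020178, chromosome 10 from 75316877 to 75334784, plus strand), a receptor gene best known from the striatum, was near the floor in both groups. It had between 0 and 38 counts per naïve mouse and between 2 and 21 counts per withdrawn mouse, or 0.561 ± 0.806 CPM (SD, n = 6) against 0.852 ± 1.00 CPM (SD, n = 5). The highest libraries were naïve mouse 2, at 2.09 CPM, and withdrawn mouse 4, at 2.58 CPM. The 7 markers of striatal projection neurons summed to 162 and 253 CPM in these mice, the lowest of the naïve mice and the median of the withdrawn mice. Penk, the most abundant of the 7, had 60.6 and 191 CPM of these sums. It ran from 60.6 to 249 CPM in naïve mice and from 113 to 499 CPM in withdrawn mice, so the order of the sums largely follows this gene. Drd2, a marker that shares striatal neurons with Adora2a, had 0.879 CPM in naïve mouse 2 and 4.30 CPM in withdrawn mouse 4. It had 1.69 and 1.17 CPM in naïve mice 4 and 6, and 3.33 CPM in withdrawn mouse 5. The part of striatal cells in these values was not tested.

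Adora2b (ENSMUSG00000018500, chromosome 11 from 62248984 to 62266453, plus strand) was found in 2 libraries, with 11 counts in naïve mouse 2 and 43 counts in withdrawn mouse 3. The other mice had 0 counts, which at these depths allows a level of up to 0.408 CPM, before normalization, in the shallowest library. No fold change is given for it. Across the 3 receptor genes, the share of Adora1 in their summed level per exon length was at least 94.0% in every mouse. Its median was 99.6% in naïve and 98.6% in withdrawn mice.

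Of the transporters, Slc29a2 was the one with a lower mean in withdrawn mice. Slc29a2 (ENSMUSG00000024891, chromosome 19 from 5023860 to 5031972, plus strand) encodes ENT2, an equilibrative transporter that also carries nucleobases. Naïve mice had between 11.5 and 33.05 CPM with a median of 23.5, and withdrawn mice 1 to 5 had 8.64, 15.7, 23.0, 7.62 and 10.2 CPM. All 5 withdrawn mice were below the naïve median and 3 were below the lowest naïve mouse, naïve mouse 1, while withdrawn mouse 3 was well within the naïve range. The means were 23.3 ± 7.92 CPM (SD, n = 6) against 13.02 ± 6.38 CPM (SD, n = 5). The log2 fold change was -0.84 (SE 0.39, 95% interval -1.67 to -0.0045), with an adjusted p of 0.690 in edgeR and 0.376 in DESeq2. The two-sided exact permutation p was 0.0433. Without the 3 mice with a conflicting label the log2 fold change was -0.996 (edgeR, adjusted p = 0.790), and with single mice left out it stayed between -1.17 and -0.69.

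Slc29a1 (ENSMUSG00000023942, chromosome 17 from 45585200 to 45599606, minus strand), the gene for the ethanol-sensitive transporter ENT1, had almost the same mean in both groups. It had 29.6 ± 19.0 CPM (SD, n = 6) for naïve against 29.8 ± 11.0 CPM (SD, n = 5) for withdrawn mice. The naïve mice fell between 12.5 and 56.6 CPM, with naïve mice 5 and 6 far above the other four, and withdrawn mice 1 to 5 had 33.6, 47.0, 27.1, 19.7 and 21.7 CPM. The log2 fold change was 0.0076 (SE 0.42, adjusted p = 0.998, edgeR), and its 95% interval from -0.89 to 0.91 leaves room for a change in either direction. Within a mouse, the level of Slc29a1 divided by that of Slc29a2, both per exon length, needs no scaling between libraries. This ratio was 2.93, 2.26, 0.888, 1.94 and 1.61 in withdrawn mice 1 to 5 and ran from 0.312 to 1.52 in naïve mice, with a median of 1.03. It was therefore above the highest naïve mouse in 4 of 5 withdrawn mice, and in withdrawn mouse 3 it was below the naïve median. Exons of Gm17080, an antisense gene, share 275 of the 4008 exonic bases of Slc29a1. That gene had 2 counts in all mice together.

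Slc29a4 (ENSMUSG00000050822, chromosome 5 from 142692512 to 142722490, plus strand) encodes PMAT, a low-affinity adenosine transporter that also takes up monoamines. It had 0 counts in 3 of 6 naïve mice and in withdrawn mouse 2. The remaining naïve mice had 32, 42 and 95 counts, and the remaining withdrawn mice had between 38 and 110. In CPM this was 1.84 ± 2.28 (SD, n = 6) against 4.02 ± 3.49 (SD, n = 5), with a log2 fold change of 1.12 (SE 1.45, adjusted p = 0.931, edgeR). The 95% interval ran from -1.98 to 4.23. Without the 3 mice with a conflicting label the log2 fold change was -0.42 (SE 2.29), from withdrawn mice 1 and 2 alone, which had 38 and 0 counts.

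Adk (ENSMUSG00000039197, chromosome 14 from 21052574 to 21448569, plus strand), which removes most adenosine in the adult brain, had the highest mean level of the 3 enzyme genes. Naïve mice had between 75.4 and 145 CPM with a median of 111, and withdrawn mice 1 to 5 had 90.97, 70.1, 118, 102 and 105 CPM. The groups overlapped, with withdrawn mouse 2 alone below the lowest naïve mouse. The means were 116 ± 26.1 CPM (SD, n = 6) against 97.2 ± 18.0 CPM (SD, n = 5). The log2 fold change was -0.25 (SE 0.19, 95% interval -0.67 to 0.16, adjusted p = 0.863, edgeR), while the exact permutation gave a two-sided p of 0.238.

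Ada (ENSMUSG00000017697, chromosome 2 from 163726584 to 163750239, minus strand), the deaminase, had few or no reads in naïve mice and was present in 4 of 5 withdrawn mice. Naïve mice 1 to 6 had 2, 21, 1, 2, 0 and 31 counts, at most 1.91 CPM with a median of 0.166. Withdrawn mice 1 to 5 had 174, 0, 149, 102 and 63 counts, or 12.5, 0, 6.96, 12.5 and 4.46 CPM. Every withdrawn mouse but mouse 2 was thus above the highest naïve mouse. The means were 0.582 ± 0.778 CPM (SD, n = 6) against 7.30 ± 5.39 CPM (SD, n = 5), a ratio of 12.5. The log2 fold change was 3.61 (SE 1.28, 95% interval 0.86 to 6.36), with an adjusted p of 0.468 in edgeR and 0.0787 in DESeq2, both above 0.05. The two-sided exact permutation p was 0.0519. Leaving out single mice gave log2 fold changes between 3.31 and 4.46, and without the 3 mice with a conflicting label it was 3.37 (edgeR, adjusted p = 0.789), from withdrawn mice 1 and 2, which differed from each other by 174 to 0 counts. Adk made up at least 90.2% of the summed level of Adk and Ada per exon length in every naïve mouse. In withdrawn mice 1 to 5 this share was 63.0%, 100%, 80.0%, 65.5% and 84.7%.

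Nt5e (ENSMUSG00000032420, chromosome 9 from 88327197 to 88372092, plus strand), which makes extracellular adenosine, showed a similar pattern in 3 withdrawn mice. Naïve mice had between 0 and 4.72 CPM, with a median of 0.933, from 0 to 81 counts. Withdrawn mice 1 to 5 had 16.1, 0.336, 19.9, 23.6 and 0.707 CPM, from 223, 3, 425, 192 and 10 counts. Mice 1, 3 and 4 were above every naïve mouse, and mice 2 and 5 were below the naïve median. The means were 1.76 ± 1.91 CPM (SD, n = 6) against 12.1 ± 10.9 CPM (SD, n = 5), a ratio of 6.87. The log2 fold change was 2.77 (SE 1.17, 95% interval 0.26 to 5.29), with an adjusted p of 0.631 in edgeR and 0.210 in DESeq2, while the exact permutation gave a two-sided p of 0.145. It was 2.20 without the 3 mice with a conflicting label (edgeR, adjusted p = 0.821).

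The withdrawn mice with high Ada were also those with high levels of some markers of other cells. In withdrawn mice 1 to 5 the fibroblast list summed to 1322, 18.4, 678, 944 and 233 CPM, with Col1a2 the most abundant of its genes. The 8 astrocyte markers summed to 504, 32.2, 406, 791 and 253 CPM, against 33.7 to 201 CPM in naïve mice, but 3 of 7 tested astrocyte markers were higher and 4 lower. Gja1, at 309, 6.38, 217, 273 and 129 CPM, and F3 gave most of that sum in withdrawn mice 1, 3, 4 and 5 but not in mouse 2, while Gfap, the classical astrocyte marker, was at most 4.55 CPM in any withdrawn mouse and reached 41.6 CPM in naïve mouse 6. Endothelial markers summed to between 3.18 and 775 CPM in naïve and between 39.5 and 651 CPM in withdrawn mice, with 2 of 8 higher and 6 lower. Glutamatergic markers were below every naïve mouse in withdrawn mice 1 and 4, which had the highest levels of Ada. Withdrawn mouse 4, which also had the highest Nt5e and Slc29a4, was the library with the highest share of reads assigned to no annotated feature. Without withdrawn mouse 4 the log2 fold change was 3.32 for Ada and 2.39 for Nt5e (edgeR, adjusted p = 0.909 and 0.997). The microglial list summed to at most 25.9 CPM in naïve and 46.5 CPM in withdrawn mice, of which 4 of 5 were above every naïve mouse, but its markers Cx3cr1, Csf1r and Aif1 stayed under 3 CPM in all mice. Choroid plexus markers summed to at most 7.78 CPM in naïve and 27.7 CPM in withdrawn mice. A setting added after the values were seen took the mean log2 CPM of the fibroblast list as a covariate. There the log2 fold change was -0.10 (SE 1.04) for Ada and -1.30 (SE 0.92) for Nt5e (edgeR, adjusted p = 0.996 and 0.921). The fibroblast sum was above every naïve mouse in 4 of 5 withdrawn mice, so this covariate overlaps with the group. Such a fit cannot separate them. The part of other cells in these values was not tested.

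**Figure D3:**
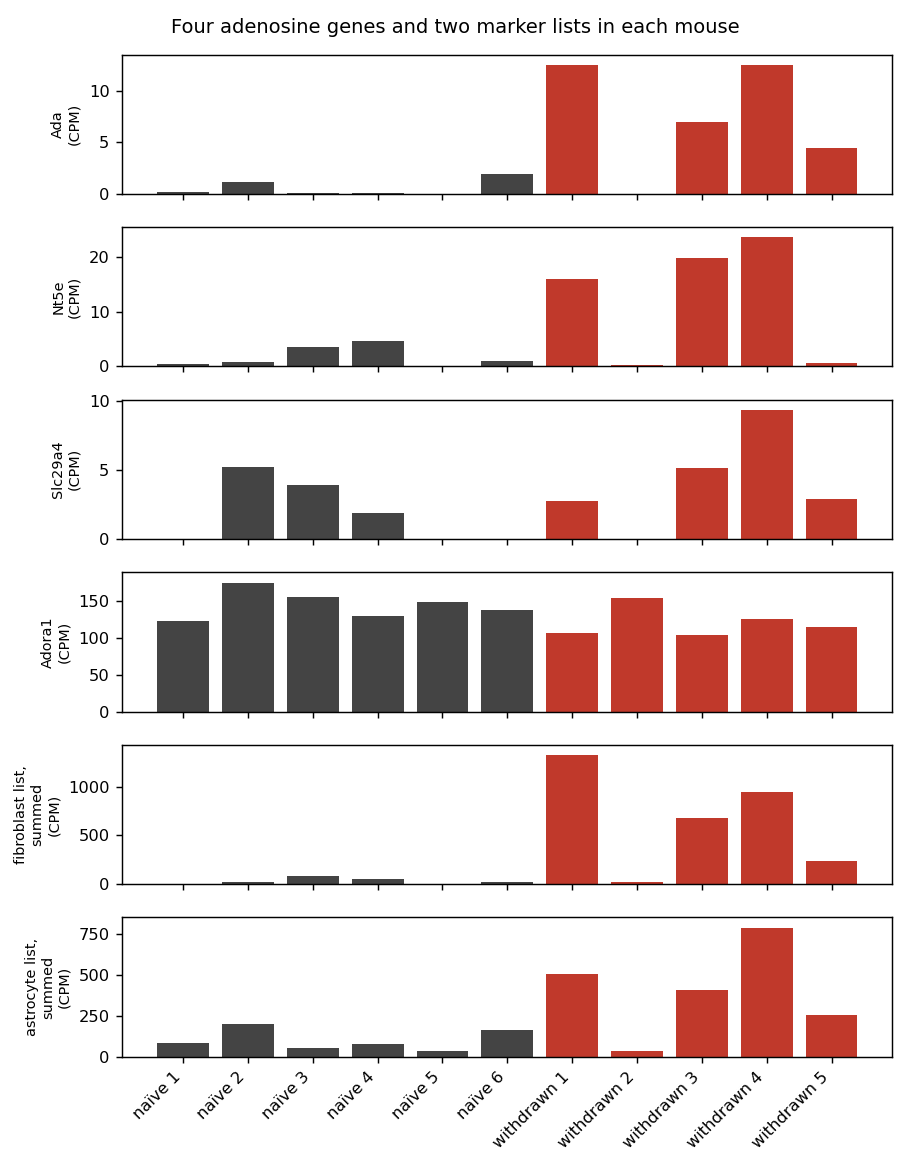
CPM of Ada, Nt5e, Slc29a4 and Adora1 and the summed CPM of the fibroblast and astrocyte marker lists in each mouse (bars from 0), with naïve mice in grey and withdrawn mice in red. Withdrawn mouse 2 has 0 CPM of Ada and the lowest marker sums of the withdrawn mice, and Adora1 is at least 105 CPM in all 11 mice.

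The start sites are shown for the 3 genes with an unadjusted p under 0.05 in edgeR. Each window runs from 250 bases before to 50 bases after the RefSeq start of transcription (GRCm38.p6), written 5′ to 3′ on the strand of the gene. Capitals mark the GC box (GGGCGG or its reverse complement CCGCCC, overlapping matches included), the core of the site bound by Sp1. The windows are chr2:163750190-163750489 on the minus strand for Ada, chr9:88327359-88327658 on the plus strand for Nt5e and chr19:5023756-5024055 on the plus strand for Slc29a2.
Ada: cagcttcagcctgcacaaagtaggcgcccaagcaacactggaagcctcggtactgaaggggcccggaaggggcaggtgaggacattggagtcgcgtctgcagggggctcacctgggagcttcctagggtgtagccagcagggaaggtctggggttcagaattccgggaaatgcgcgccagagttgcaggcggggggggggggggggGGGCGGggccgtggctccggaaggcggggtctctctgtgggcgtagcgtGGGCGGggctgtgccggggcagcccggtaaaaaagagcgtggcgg
Nt5e: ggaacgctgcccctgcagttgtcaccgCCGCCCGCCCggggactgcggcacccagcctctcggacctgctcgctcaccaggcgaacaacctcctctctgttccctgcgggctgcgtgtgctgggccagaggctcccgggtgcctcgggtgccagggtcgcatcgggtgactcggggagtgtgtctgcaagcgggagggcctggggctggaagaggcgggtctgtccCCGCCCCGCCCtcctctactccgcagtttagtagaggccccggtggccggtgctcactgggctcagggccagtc
Slc29a2: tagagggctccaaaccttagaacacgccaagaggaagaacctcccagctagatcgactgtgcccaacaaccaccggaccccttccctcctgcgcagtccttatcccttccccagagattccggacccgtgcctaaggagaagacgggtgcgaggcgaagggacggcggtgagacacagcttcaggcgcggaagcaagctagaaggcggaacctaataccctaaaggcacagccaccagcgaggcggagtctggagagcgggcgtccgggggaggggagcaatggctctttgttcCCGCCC
These windows held 2, 4 and 1 GC boxes and were 68.0%, 71.0% and 61.7% G or C. Of the 9 genes, 8 matched at least 1 such window, with 17 windows in all, of which 8 belong to Slc29a1 and in part overlap, and Adora2a had no entry. A GC box was found in 13 of the 17, in at least 1 window of each of the 8 genes, where 35.7% of 32851 promoter windows hold one. All 17 windows were richer in G and C than the median of all windows, 52.7%. The cAMP response element (TGACGTCA) was in 0 of the 17 windows and in 1.79% of all, and the hypoxia response core (ACGTG, both strands) in 4 of 17, those of Slc29a1 (3) and Adora1 (1), and in 19.6% of all. The TATA box (TATAAA, both strands) was in 1 of 17, that of Slc29a4, and in 13.6% of all. The windows of Ada and Nt5e, with higher means in withdrawn mice, and that of Slc29a2, with lower means, had the GC box in common.

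Other genes of adenosine and ATP metabolism were counted in 5 lists, which were chosen with earlier results of these data known. Their counts are therefore a description. No gene of the lists met the thresholds in edgeR, and 6 of the 47 tested had an unadjusted p under 0.05, where 7.22% of all tested genes had one, namely Entpd3, Alpl, Ampd3, Ahcyl2, Nt5m and Gnai3. The ectonucleotidases, which break down nucleotides outside the cell, had 8 genes of which 6 were tested. Of the 6, 5 had a log2 fold change above 0 with a median of 1.86, and 2 had an unadjusted p under 0.05, both higher in withdrawn mice, a direction in which 5.00% of all tested genes had such a p. Alpl, the tissue-nonspecific alkaline phosphatase that can release adenosine from AMP, lay between 0 and 29.8 CPM in naïve mice and at 979, 11.8, 329, 494 and 167 CPM in withdrawn mice 1 to 5. These are the mice with high fibroblast sums, and withdrawn mouse 2 was within the naïve range. Its log2 fold change was 4.72 (SE 1.01), with an adjusted p of 0.121 in edgeR and 0.0051 in DESeq2. Entpd3, which hydrolyses ATP and ADP, had 9.90 ± 5.06 CPM (SD, n = 6) against 20.1 ± 8.70 CPM (SD, n = 5), and withdrawn mouse 2, at 15.6 CPM, was above the naïve median here too (log2 fold change 1.02, adjusted p = 0.649, edgeR).

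Of 17 intracellular enzymes of AMP, adenosine and purine salvage, 15 were tested, with a median log2 fold change of -0.18. Ampd3, an AMP deaminase that diverts AMP away from adenosine, was the single listed gene with groups that did not overlap, as for 0.948% of all tested genes. It lay between 4.22 and 14.9 CPM in naïve mice and at 44.1, 15.7, 31.3, 61.7 and 23.4 CPM in withdrawn mice 1 to 5. Its log2 fold change was 1.84 (SE 0.43), with an adjusted p of 0.157 in edgeR and 0.0027 in DESeq2, and its exons share 83 bases with genes on its own strand and 391 with genes on the other. Ahcyl2, a relative of S-adenosylhomocysteine hydrolase known for regulating ion transport rather than for making adenosine, had 71.5 ± 13.9 CPM (SD, n = 6) against 305 ± 180 CPM (SD, n = 5). It was above the naïve range in 4 withdrawn mice and at 54.8 CPM in withdrawn mouse 2 (log2 fold change 2.09, standard error 0.40, adjusted p = 0.0931 in edgeR and 0.0005 in DESeq2). Nt5m, a mitochondrial nucleotidase of deoxyribonucleotides, had 71.4 ± 24.8 CPM (SD, n = 6) against 42.8 ± 13.4 CPM (SD, n = 5), with a log2 fold change of -0.74 (adjusted p = 0.545, edgeR). The most abundant salvage genes per exon length, Hprt and Ak1, had log2 fold changes of -0.28 and -0.30 (adjusted p = 0.864 and 0.861, edgeR). As for Alpl, the levels of Ampd3 and Ahcyl2 were highest in withdrawn mice 1, 3 and 4, the mice with the highest fibroblast sums, and lowest in withdrawn mouse 2, which had the lowest. The part of other cells in these values was not tested. Without withdrawn mouse 2, Alpl, Ampd3 and Ahcyl2 met the thresholds in edgeR (adjusted p = 0.0137, 0.0304 and 0.0012), in a fit that called 193 of 18170 genes.

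**Figure D4:**
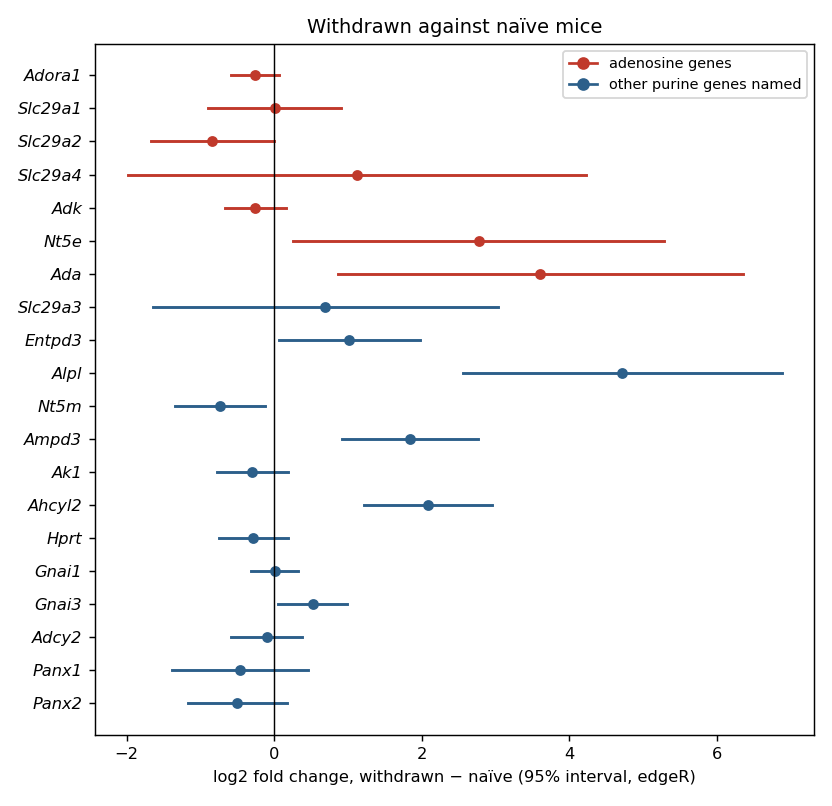
Log2 fold change of withdrawn against naïve mice with its 95% interval in edgeR for the 7 tested adenosine genes (red) and 13 other purine genes (blue). Intervals of Adora1 and Adk are narrow and include 0, and those of Nt5e and Ada are wide and lie above 0, without an adjusted p under 0.05 for any gene plotted.

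For the proteins that pass on the receptor signal, all 15 listed G protein alpha subunits and adenylyl cyclases were tested. Their median log2 fold change was -0.041, with a range from -0.64 to 0.53. Gnai1, an inhibitory subunit through which A1 receptors act, had 325 ± 46.5 CPM (SD, n = 6) against 327 ± 48.3 CPM (SD, n = 5). Gnai3, of the same family, had 41.1 ± 11.0 CPM (SD, n = 6) against 59.3 ± 9.58 CPM (SD, n = 5) and was above every naïve mouse in 4 of 5 withdrawn mice (log2 fold change 0.53, adjusted p = 0.614, edgeR). Adcy2, an adenylyl cyclase, had a log2 fold change of -0.10 (adjusted p = 0.966, edgeR). Of 16 ATP release channels and P2 receptors, 9 were tested in edgeR and 0 had an unadjusted p under 0.05 there. In DESeq2, 2 genes of this list had such a p, beside 6.24% of all genes, and 0 were called. The pannexins Panx1 and Panx2 had log2 fold changes of -0.47 and -0.50 (adjusted p = 0.891 and 0.816, edgeR). Among the remaining adenosine receptor and nucleoside transporters, 2 of 5 genes were tested in edgeR and neither had an unadjusted p under 0.05 there. In DESeq2, 1 gene of this list had such a p, beside the same 6.24% of all genes, and 0 were called. Slc29a3, a lysosomal transporter, had 4.11 ± 3.86 CPM (SD, n = 6) against 6.66 ± 4.61 CPM (SD, n = 5), and Slc28a1 was below the filter.

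For the 3 adenosine genes with the highest mean CPM, the genes with the most similar course over the 11 mice were listed from 17092 tested genes. By Pearson's r of log2 CPM these were Igsf21 (0.858), Fgf13 (0.854) and Limk2 (0.841) for Adora1, Nckipsd (0.909), Gm30340 (0.904) and Pum3 (0.899) for Adk, and Crbn (0.880), Sesn1 (0.875) and Sephs2 (0.866) for Slc29a1. These values describe 11 libraries of 2 groups that also differ in depth, and with so many genes searched the highest values are high by selection.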

How the data were processed

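RNA of sorted mPFC CRF1+ neurons from 6 naïve and 5 withdrawn mice was analysed. The authors used cutadapt 1.18 for trimming, STAR 2.5.2a for mapping on GRCm38 with annotation of Ensembl release 91, and HTSeq 0.11.0 for counting. The deposited files hold unnormalized counts, 1 file per mouse. Whether counting used strand is not given in the sources used here, and the cDNA kit does not mark it. Symbols, exon lengths and coordinates came from GENCODE M21 on the same assembly, and promoters from RefSeq (GRCm38.p6).

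Groups follow the recorded treatment, and replicate numbers are those of the labels. The members and lists were chosen with earlier results of these data known. Counts were compared with edgeR 4.0.16 in R 4.3.3 (TMM, filterByExpr with minimum count 10 and minimum total count 15, quasi-likelihood test, Benjamini-Hochberg adjustment over all genes tested). Called genes had a log2 fold change beyond 0.6 and an adjusted p no higher than 0.05, as in the study's methods. The standard error is the log2 fold change divided by the square root of F. CPM use TMM-normalized library sizes, and log2 CPM a prior count of 2. Permutation tests on log2 CPM used all 462 splits of the mice, with 0.002165 the smallest p possible. DESeq2 1.42.0 and limma 3.58.1 (voom with quality weights) were alternatives. The fit was tested on simulated data.

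The genes named are the 9 members, in each list those with an unadjusted p under 0.05 and the 2 with the highest level per exon length, Crhr1, and the 3 genes most like each of the 3 most abundant members. Drd2, Penk, Gfap, Gja1, F3, Col1a2 and the microglial markers were named after their values were seen. Pairs of libraries differed by at least 29.3 in chi-square per degree of freedom, so none was a duplicate.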

Additional observations from a re-analysis of the deposited data

Results flagged for a closer look

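Among 46 sets of CPM values of 1 gene in 1 group, 7 had 1 mouse at a distance from the rest. About 2.3 would be found by chance if the values were normally distributed, which values near the floor are not. A set with a single mouse above 0, as in both groups for Adora2b, is always flagged. The count of 7 is therefore a description. For Adora2a these were naïve mouse 2, at 2.09 CPM from 38 counts (next highest 0.750 CPM), and withdrawn mouse 4, at 2.58 CPM from 21 counts (next highest 0.792 CPM). Adora2b stood out in naïve mouse 2, at 0.604 CPM from 11 counts, and in withdrawn mouse 3, at 2.01 CPM from 43 counts, with all other mice of each group at 0. Slc29a3 was high in naïve mouse 6, at 11.4 CPM, and Slc28a1 in naïve mouse 4, at 4.02 CPM. Gnai1 was low in withdrawn mouse 4, at 244 CPM, where the next mouse had 331 CPM. The cause was not tested for any of these values.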

How the results depend on the processing

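The number of adenosine genes past the thresholds was 0 under every alternative run, and the smallest adjusted p among them was 0.0787, for Ada in DESeq2. Over all genes edgeR called 1, against 362 in DESeq2, 137 without the low-count filter, 30 with at least 10 counts in every mouse and 26 with genes detected as covariate. It called 0 without the 3 mice with conflicting labels, 0 with the fibroblast covariate and between 0 and 193 with single mice left out, the highest without withdrawn mouse 2. In the 5 purine lists together 0 genes were called, against 3 in DESeq2 (Alpl, Ampd3 and Ahcyl2), 2 without the filter, 1 with at least 10 counts in every mouse and 0 to 3 with single mice left out. The log2 fold change of Slc29a1 changed sign without the filter (-0.044) and ran from -0.24 to 0.30 with single mice left out. That of Slc29a4 became -0.42 (SE 2.29) without the mice with conflicting labels and -2.61 (SE 1.58) with the fibroblast covariate. Under that covariate Nt5e had -1.30, Ada -0.10 and Slc29a1 0.81, the furthest Slc29a1 moved under any alternative. Adora1, Adk and Slc29a2 had a log2 fold change below 0 under all alternatives. The cause of these differences between settings was not tested. For Slc29a2 the unadjusted p in edgeR was under 0.05 in 3 of 11 fits that left out a mouse, for Nt5e in 5 and for Ada in 11.

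With the replicate number as a block, edgeR called 0 genes, and the log2 fold change was 5.53 for Ada, 2.35 for Slc29a4 and 0.41 for Slc29a1. Same-numbered mice are different animals, and the correlation of their deviations ran from -0.20 to 0.18, with 1 of 5 withdrawn mice closest to its own number. Depth limits Adora2a and Adora2b, which were at or near the floor in most mice.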
